A study of Mus musculus with 40 samples.

Results

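The 9 BXD lines with the most reads counted as Lars2 in the hypothalamus are set here against the 9 lines with the least, 18 of the 36 BXD lines and of 40 libraries in all. The lines were chosen by their measured Lars2 level in CPM, the count of a gene per 1e+06 counts of its library, so Lars2 is given as a description with no test. BXD lines are recombinant inbred mice whose genomes mix those of DBA/2J and C57BL/6J. Both of these parents and their reciprocal hybrids, B6D2F1 and D2B6F1, are in the series too. All mice were in the basal state without treatment, and no sex or age is given in the labels used here. Each strain gave 1 library, made for a BXD line from the pooled RNA of 3 to 6 hypothalami, so every p-value measures a difference against the spread between lines, and variation between animals or repeat libraries of a line was not measured.

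Lars2 encodes the mitochondrial leucyl-tRNA synthetase, the enzyme that loads leucine onto its transfer RNA inside mitochondria. Rpph1 is the RNA subunit of ribonuclease P, which trims the leading end of transfer RNA precursors. It is made by RNA polymerase III and carries no poly(A) tail, while the libraries came from an mRNA kit that captures RNA by its poly(A) stretch. Malat1 and Kcnq1ot1 are long noncoding RNAs that stay in the nucleus. In bulk tissue, fewer cells of a type and less RNA per cell cannot be told apart.

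The sequences of 3 transcripts that followed Lars2, and of an abundant noncoding RNA that did not, show how they differ in the A runs that an mRNA kit can bind. They come from GENCODE vM21 on GRCm38, and capitals mark the longest run of A in the transcript. Rpph1 (chr14:50807449-50807767, minus strand) is shown from base 1 to 300 of 319 and has no run of A longer than 2 bases in its whole length, so it carries no capitals.
Rpph1: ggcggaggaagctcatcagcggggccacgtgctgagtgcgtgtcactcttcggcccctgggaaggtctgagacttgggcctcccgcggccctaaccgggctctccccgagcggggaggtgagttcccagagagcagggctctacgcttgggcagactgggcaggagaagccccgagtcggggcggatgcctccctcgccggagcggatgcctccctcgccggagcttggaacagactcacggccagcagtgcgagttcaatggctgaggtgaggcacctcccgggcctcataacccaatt
The Malat1 window covers bases 6644 to 6715 of a transcript of 6983 bases (chr19:5795690-5802672, minus strand), with a run of 12.
Malat1: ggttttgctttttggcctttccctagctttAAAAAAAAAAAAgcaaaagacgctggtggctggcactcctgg
The Kcnq1ot1 window covers bases 69535 to 69635 of 93092 (chr7:143203458-143296549, minus strand), with a run of 41.
Kcnq1ot1: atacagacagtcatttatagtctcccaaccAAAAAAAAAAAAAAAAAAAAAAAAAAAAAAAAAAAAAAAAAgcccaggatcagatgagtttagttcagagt
The window of Snhg11, a small nucleolar RNA host gene whose level did not pass the test, covers bases 1301 to 1368 of 5864 (chr2:158375638-158386145, plus strand), with a run of 8.
Snhg11: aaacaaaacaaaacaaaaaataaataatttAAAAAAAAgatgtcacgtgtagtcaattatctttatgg
Among these 4 transcripts, the longest A run was 2, 12 and 41 bases in those that followed Lars2 and 8 bases in Snhg11. Among other noncoding genes it was 5 bases in Ppp2r2cos and 7 bases in 4930480K15Rik, which both rose. It was 12 bases in Snhg12, which did not pass. These are a few chosen transcripts. Over all gene types the median longest run was 8 bases for higher genes and 6 bases for all genes tested. Whether A runs bear on the rise was not tested.

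In the 9 highest lines Lars2 stood at 13085 CPM in BXD49, 11858 in BXD48, 10786 in BXD73, 9886 in BXD45, 7680 in BXD75, 7666 in BXD51, 5449 in BXD90, 5346 in BXD98 and 4864 in BXD103. In the 9 lowest lines it stood at 1268 CPM in BXD83, 1245 in BXD101, 1175 in BXD67, 1115 in BXD50, 1078 in BXD70, 850 in BXD71, 813 in BXD44, 419 in BXD43 and 318 in BXD32. The highest lines averaged 8513 ± 3027 CPM and the lowest 920 ± 351 CPM (SD, n = 9 each), a ratio of 9.25. Lars2 alone took 0.486% to 1.31% of all counts in the highest lines and 0.0318% to 0.127% in the lowest. The first line left out of the highest group was BXD56 at 4490 CPM, and the first left out of the lowest was BXD66 at 1301 CPM. At both edges the next line is thus close, and the groups are ends of a continuous range.

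Library totals ran from 17.3 to 40.4 M counts in the highest lines and from 20.6 to 30.1 M in the lowest, and 5 of the 9 highest lines had a total below every lowest line. Over all 40 libraries they ran from 12.2 to 40.4 M. All 18 hypothalamic peptides and factors listed as tissue markers were detected, with summed levels of 624 to 984 CPM in the highest lines and 584 to 1228 CPM in the lowest. None of the 18 passed the test, where 1.02% of all genes did (smallest adjusted p = 0.0791 by edgeR). Their median log2 difference was -0.21, with 5 of the 18 above 0 and a range from -0.51 to 0.16. The 18 include Pmch, the precursor of melanin-concentrating hormone, at -0.38 ± 0.11 (SE, adjusted p = 0.124 by edgeR), and Hcrt, which encodes the orexins, at -0.05 ± 0.19.

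Between the 9 highest and the 9 lowest lines, 157 of 15437 genes tested passed (1.02%) at an adjusted p under 0.05 with edgeR's quasi-likelihood test, of which 122 were higher (0.79% of those tested) and 35 lower (0.227%). An unadjusted p under 0.05 was found for 2053 genes (13.3%). The changes were unequal in size. Of the 122 higher genes, 51 differed by at least 1 log2 unit, and 20 of these were long noncoding RNAs. Of the 35 lower genes none did, and their log2 differences lay between -0.66 and -0.17. Higher genes were also scarcer, with a median of 4.47 CPM over the 18 lines, against 24.3 CPM for all genes tested and 58.3 CPM for the lower ones. The groups did not overlap at all for 45 genes that were higher (0.292% of those tested) and 12 that were lower (0.0777%). The median log2 difference of all genes was -0.0016.

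**Figure D1:**
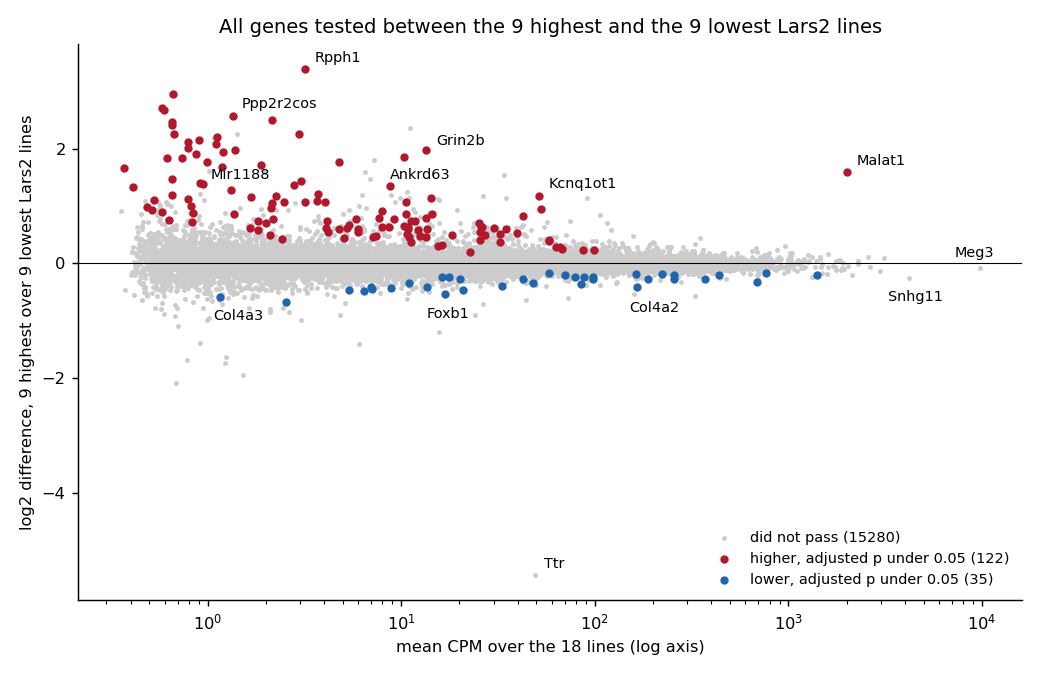
Each point is a gene, with its mean level over the 18 lines in CPM on a log axis and its log2 difference of the 9 highest over the 9 lowest Lars2 lines. Red points passed as higher (122) and blue as lower (35). Rpph1 lies on top at 3.38, Malat1 is the most abundant higher gene, and lower genes stay within 0.66 log2 units of 0.

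Listed genes of striatum and septum, which lie near the hypothalamus, stood higher in the highest lines. All 14 of 14 tested lay above 0, with a median log2 difference of 0.51. None passed, where 1.02% of all genes did (smallest adjusted p = 0.0899 by edgeR). Their summed level was 558 to 1817 CPM in the highest lines (median 704) and 493 to 633 CPM in the lowest (median 596), with no member at 0, and BXD90 held the top value. Adora2a, the adenosine receptor of striatal neurons, had 2.15 to 41.6 CPM in the highest lines and 0.950 to 5.06 CPM in the lowest. In the middle lines the list's median slope was 0.08. With the mean log2 level of the listed striatal genes in each line as a covariate, 55 genes were higher and 0 lower. Of the 55, 54 were among the 157. All the higher genes named by rule kept their call in that fit, with Rpph1 at 3.47, Malat1 at 1.56, Kcnq1ot1 at 1.25 and the glutamate receptor gene Grin2b at 1.94 log2 units, except Ankrd63 (0.87, adjusted p = 0.447) and Egr3 (0.38, adjusted p = 0.784), while all 12 lower ones lost theirs. The falls of 7 of those 12 stayed within 0.1 log2 units of their values without the covariate, such as Col4a2 at -0.42 (adjusted p = 0.0503) and Cybrd1 at -0.44 (adjusted p = 0.132), and that of Pmfbp1 was -0.28. With the library total as a covariate, 92 genes were higher and 21 lower.

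Rpph1 was the gene with the largest rise. It had 57 to 337 reads per library in the highest lines and 4 to 40 in the lowest. In CPM it ran from 2.88 through a median of 5.57 to 9.55 in the highest lines, and from 0.173 through 0.389 to 1.33 in the lowest. Every highest line lay above every lowest line. The log2 difference was 3.38 ± 0.31 (SE), with an adjusted p = 3.13e-06 by edgeR, and means of 5.84 ± 2.34 CPM in the highest and 0.548 ± 0.340 CPM in the lowest lines (SD, n = 9 each). Parp2, a DNA repair enzyme gene that lies within 1 kb of Rpph1, stood at 24.1 CPM in the highest and 26.7 CPM in the lowest lines and did not pass (log2 -0.14 ± 0.07 SE, adjusted p = 0.392).

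Few other small structural RNAs could be measured, and none that was tested passed besides Rpph1 and Mir1188. Of 9 polymerase III or other structural RNAs in the count table, 7 had reads in the 18 lines and Rpph1 alone had enough to be tested. The filter on low counts could admit a gene through its reads in 1 group. For Rpph1 the highest lines held those reads, with 57 to 337 per library against 4 to 40 in the lowest. Spliceosomal and U3 small nuclear RNAs had 3 entries, and none reached the count needed for a test, with summed levels of 0.223 to 0.554 CPM in the highest lines and 0.166 to 0.400 CPM in the lowest. With 1.02% of all genes passing, lists of the sizes given next would hold few or no calls. Of 30 small nucleolar and Cajal body RNAs tested, 0 were higher and 0 lower, with a median log2 difference of 0.04. Their most abundant members were Snord91a at 0.22 ± 0.11 (SE), Snord96a at 0.09 ± 0.13 and Snord2 at -0.07 ± 0.16, and the smallest adjusted p among the 30 was 0.0790. Replication-dependent histone mRNAs end in a stem-loop in place of a poly(A) tail, and of 12 tested 0 passed, with Hist3h2a at 0.08 ± 0.08, Hist1h1c at -0.08 ± 0.11 and Hist1h2bc at -0.05 ± 0.11.

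Against 0.79% of all genes higher and 0.227% lower, 1 of 37 entries matched as microRNA precursors or their hosts was higher and 0 were lower. It was Mir1188, with 0.818 to 1.67 CPM in the highest lines (median 1.34) and 0.275 to 0.875 CPM in the lowest (median 0.442). The groups overlapped slightly, and the log2 difference was 1.41 ± 0.19 (SE, adjusted p = 1.14e-04). Its hairpin lies at chr12:109611822-109611941 on the plus strand (RefSeq, GRCm38.p6) inside Rian, a long noncoding RNA of the same imprinted cluster as Meg3. Rian itself stood at 655 CPM in the highest lines and 699 CPM in the lowest and did not pass (log2 -0.08 ± 0.07 SE). Libraries from an mRNA kit do not measure mature microRNAs. The mature forms are printed because this is the single microRNA entry that passed, with the seed (bases 2 to 8) in capitals.
mmu-miR-1188-5p: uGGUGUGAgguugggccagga
mmu-miR-1188-3p: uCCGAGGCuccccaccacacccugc
The most abundant other entries did not pass: Mir682 at 0.18 ± 0.10, Mir22hg at -0.08 ± 0.06 and Mir3064 at -0.06 ± 0.10 (SE).

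Malat1 and Kcnq1ot1 were the nuclear RNAs that rose, 2 of 21 tested on a list of long noncoding RNAs whose median difference was 0.01. Of all genes 0.79% rose. Malat1, a scaffold RNA of nuclear speckles, ran from 1644 through 3067 to 3769 CPM in the highest lines, and from 737 through 941 to 1550 CPM in the lowest. The groups did not overlap, although BXD103 in the highest group lay only just above BXD50, the top of the lowest. The log2 difference was 1.59 ± 0.15 (SE, adjusted p = 7.96e-06 by edgeR), with means of 3022 ± 621 CPM in the highest and 1007 ± 256 CPM in the lowest lines (SD, n = 9 each). Kcnq1ot1, the RNA that silences an imprinted domain from the paternal chromosome, ran from 43.7 through 78.3 to 94.8 CPM in the highest lines and from 24.6 through 31.7 to 38.5 CPM in the lowest, again without overlap, at 1.18 ± 0.13 (adjusted p = 1.19e-05). Kcnq1, the potassium channel gene it overlaps on the opposite strand, averaged 0.761 CPM in the highest and 0.838 CPM in the lowest lines and did not pass (-0.13 ± 0.20).

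The other 19 tested members of the list did not pass. Meg3, a maternally expressed noncoding RNA, averaged 9412 ± 703 CPM in the highest lines and 10020 ± 1315 CPM in the lowest (SD, n = 9 each; log2 -0.08 ± 0.07 SE, adjusted p = 0.640). Snhg11 averaged 3848 ± 896 CPM in the highest and 4593 ± 1115 CPM in the lowest lines, with an adjusted p = 0.496. The entry 2900097C17Rik averaged 715 ± 18.2 CPM in the highest and 777.8 ± 73.2 CPM in the lowest lines, with an adjusted p = 0.346. Neat1, the RNA that builds nuclear paraspeckles, split within both groups: 6 highest lines had 159 to 240 CPM and the other 3 had 21.9 to 37.7 CPM, while 4 lowest lines had 165 to 252 CPM and the other 5 had 27.9 to 49.1 CPM. It did not pass (log2 0.35 ± 0.59 SE, adjusted p = 0.834). Of 11 small nucleolar RNA host genes tested, 0 passed, against 1.02% of all genes, with Gas5 at 0.19 ± 0.10 and Snhg12 at -0.08 ± 0.08.

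**Figure D2:**
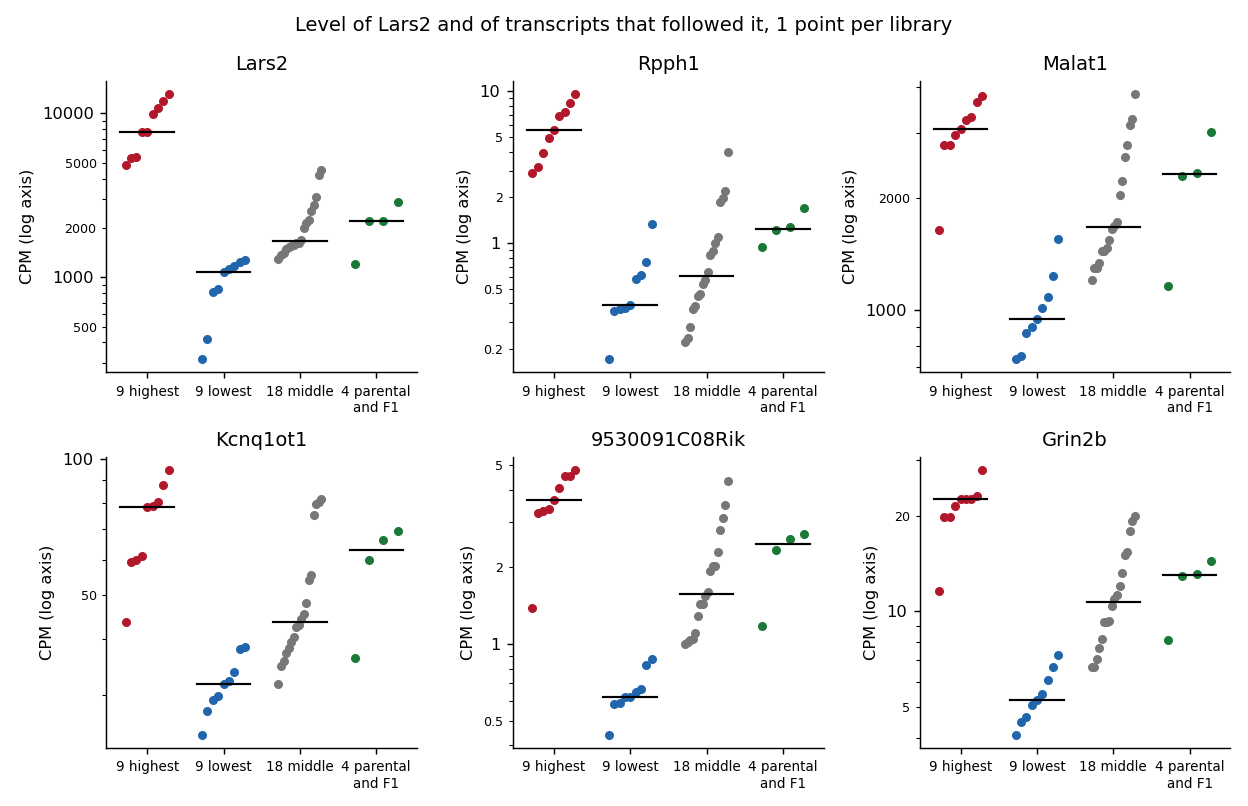
Each point is 1 library, with its level in CPM on a log axis, and horizontal bars are group medians. Besides Lars2, which set the groups, Rpph1, Malat1, Kcnq1ot1, 9530091C08Rik and Grin2b separate the 9 highest from the 9 lowest Lars2 lines without overlap, the 18 lines in the middle overlap the highest group in every panel but that of Lars2, and among the 4 parental and F1 libraries C57BL/6J is the lowest in each panel.

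By RefSeq gene type, 26 of 633 long noncoding RNAs were higher (4.11%) and 1 was lower, against 89 of 14566 protein-coding genes higher (0.611%) and 34 lower. Of all types, 94 of the 122 higher genes and all 35 lower ones had a mean of at least 1 CPM over both groups. Scarce genes could pass the filter on low counts through the highest lines alone. The part of abundance and of this filter in the contrast between gene types was not tested. Of the long noncoding RNAs that overlap a protein-coding gene on the opposite strand in GENCODE vM21, 15 of 290 were higher (5.17%), of those on the same strand 1 of 28 (3.57%), and of those that overlap none 4 of 262 (1.53%), and Malat1 is among these 4. A further 53 had no GENCODE entry under their names, and 6 of them were higher (11.3%). The 16 protein-coding genes overlapped by a higher long noncoding RNA were all tested, and their median log2 difference was 0.0077. None of the 16 was called, where 1.02% of all genes were, so a list of this size would hold few or none. These pairs were chosen for the rise of their noncoding member, and over all 290 opposite-strand long noncoding RNAs the median difference was 0.04.

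Ppp2r2cos, antisense to the phosphatase subunit gene Ppp2r2c, had 1.34 to 3.52 CPM in the highest lines (median 2.44) and 0.0736 to 0.778 CPM in the lowest (median 0.417). The groups did not overlap, and the log2 difference was 2.57 ± 0.30 (SE, adjusted p = 2.55e-05 by edgeR). Ppp2r2c itself stood at 359 CPM in the highest and 341 CPM in the lowest lines, at 0.09 ± 0.04 (adjusted p = 0.309). The long noncoding RNA 4930480K15Rik had 1.12 to 2.77 CPM in the highest lines (median 1.67) and 0.329 to 0.924 CPM in the lowest (median 0.405), without overlap, at 1.93 ± 0.23 (adjusted p = 2.57e-05). A called noncoding gene beside a coding partner that did not pass was also found for pairs whose noncoding member averaged under 1 CPM, named here after their values were seen: Nron with Mvb12b (2.71 and 0.07 log2 units), Gm10538 with the axonal gene Nfasc (2.47 and -0.07), Dnm3os with Dnm3 (1.91 and 0.01) and C630031E19Rik with the neuronal factor Myt1l (1.84 and 0.12). Noncoding genes this scarce could pass the filter on low counts through the highest lines alone. The same could hold for Ppp2r2cos, 4930480K15Rik, Mir1188, E030024N20Rik and 5031410I06Rik, whose medians in the lowest lines were 0.405 to 0.444 CPM. The labels name a stranded kit but not the strand setting of the counting, so reads of an antisense RNA and of its partner may not be fully parted.

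**Figure D3:**
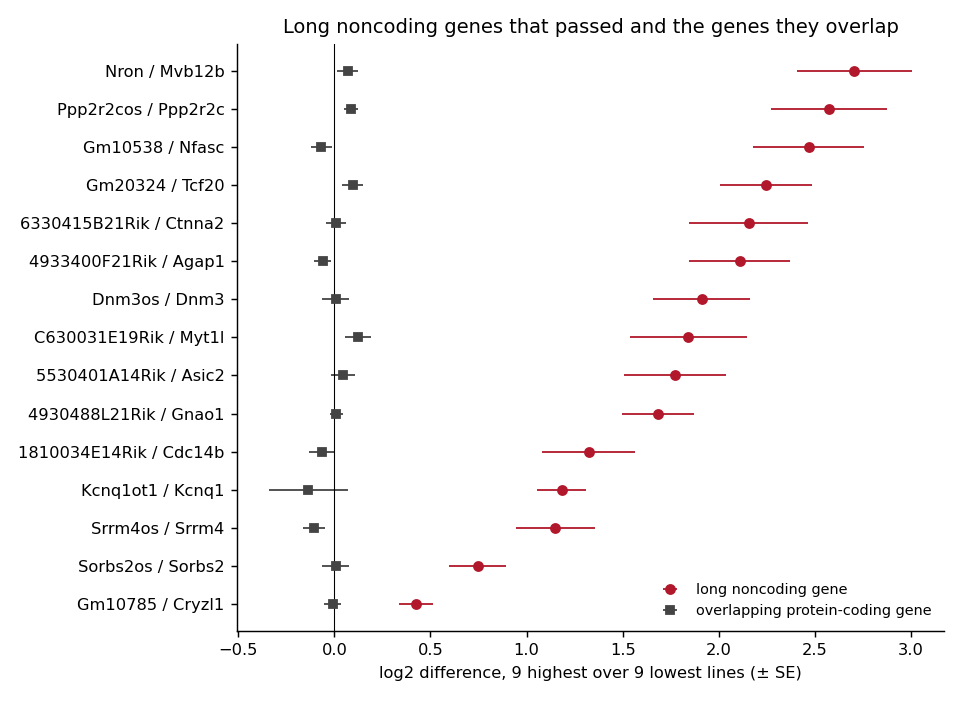
Red circles give the log2 difference of the 9 highest over the 9 lowest Lars2 lines for long noncoding genes that passed as higher. Shown are 15 of the 16 that overlap a protein-coding gene in GENCODE vM21. Dark squares give the difference of the protein-coding gene each overlaps, named after the slash. Bars are standard errors. The noncoding genes were chosen for their rise, and their partners lie between -0.13 and 0.12.

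In RefSeq, 9530091C08Rik overlaps Rora, a nuclear receptor gene, and it had 1.38 to 4.80 CPM in the highest lines (median 3.66) and 0.442 to 0.875 CPM in the lowest (median 0.622). It differed by 2.49 ± 0.19 log2 units (SE, adjusted p = 1.08e-07 by edgeR) without overlap, while Rora did not pass (0.44 ± 0.17, adjusted p = 0.264). Tbrg3, which overlaps the transcription factor gene Tcf20, had 2.11 to 6.78 CPM in the highest lines and 0.302 to 1.94 CPM in the lowest, at 2.25 ± 0.28. E030024N20Rik, a transcribed pseudogene that overlaps the G protein gene Gnaq, differed by 2.21 ± 0.24, and D830031N03Rik, typed as protein coding and overlapping the cytoskeletal gene Macf1, by 1.76 ± 0.19. Tcf20, Gnaq and Macf1 stood at 0.09, -0.09 and 0.08 log2 units, and none passed. The coding entry 5031410I06Rik had 0.990 to 3.23 CPM in the highest lines and 0.200 to 0.778 CPM in the lowest, at 2.07 ± 0.26.

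Grin2b had the smallest adjusted p of all genes tested. It encodes a glutamate-binding subunit of the NMDA receptor. Its level ran from 11.6 through 22.6 to 27.9 CPM in the highest lines, and from 4.09 through 5.25 to 7.29 CPM in the lowest, and the groups did not overlap. Means were 21.3 ± 4.33 CPM in the highest and 5.45 ± 1.06 CPM in the lowest lines (SD, n = 9 each), with a log2 difference of 1.97 ± 0.14 (SE, adjusted p = 3.45e-08). Of the other receptor subunits of the family, looked up after Grin2b was seen, Grin2a also rose, with 3.11 CPM in the highest and 1.38 CPM in the lowest lines on average (1.18 ± 0.25, adjusted p = 0.0212), though its groups overlapped. Grin1, the obligatory subunit, averaged 251 CPM in the highest and 233 CPM in the lowest lines and did not pass (0.11 ± 0.07). Grin3a averaged 125.8 ± 6.66 CPM in the highest and 126.8 ± 10.1 CPM in the lowest lines, and Grin2c, Grin2d and Grin3b did not pass either, with log2 differences of 0.02, 0.01 and 0.22.

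Lcor, a ligand-dependent nuclear receptor corepressor, had 1.94 to 4.25 CPM in the highest lines and 0.405 to 1.65 CPM in the lowest, at 1.72 ± 0.23 log2 units (SE), and its groups did not overlap. Ankrd63 behaved differently: it had 6.34 to 44.4 CPM in the highest lines and 0.734 to 7.86 CPM in the lowest, overlapping, at 1.85 ± 0.40 (adjusted p = 0.0317). BXD90 gave its top value, and the call was lost in 8 of the 18 fits that left out 1 line.

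The higher protein-coding genes were long. Their median RefSeq span was 102 kb, against 19.9 kb for the lower ones and 25.2 kb for all protein-coding genes tested. In 4 groups of equal size by span, 0.494%, 0.275%, 0.247% and 1.43% were higher from the shortest to the longest. The longest group was also the most abundant, with a median of 41.1 CPM, against 15.6 CPM for the shortest, and the part of abundance was not tested. The 3' untranslated regions of the higher genes had a median of 3075 bases, against 1154 bases for the lower genes and 1167 bases for all, and 1.38% of the group with the longest were higher, against 0.331% to 0.359% of the other 3 groups. For all types together the median GC content was 45.7% for higher, 51.0% for lower and 50.3% for all genes, and the longest A run had a median of 8, 7 and 6 bases. The higher transcripts were also longer, with a median of 4833 bases against 3149 bases for all, and the part of length in these values was not tested. Grin2b spans 460 kb with 18870 bases of 3' untranslated region, and Zbtb20, a zinc finger repressor gene, spans 759 kb with 23860 bases.

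**Figure D4:**
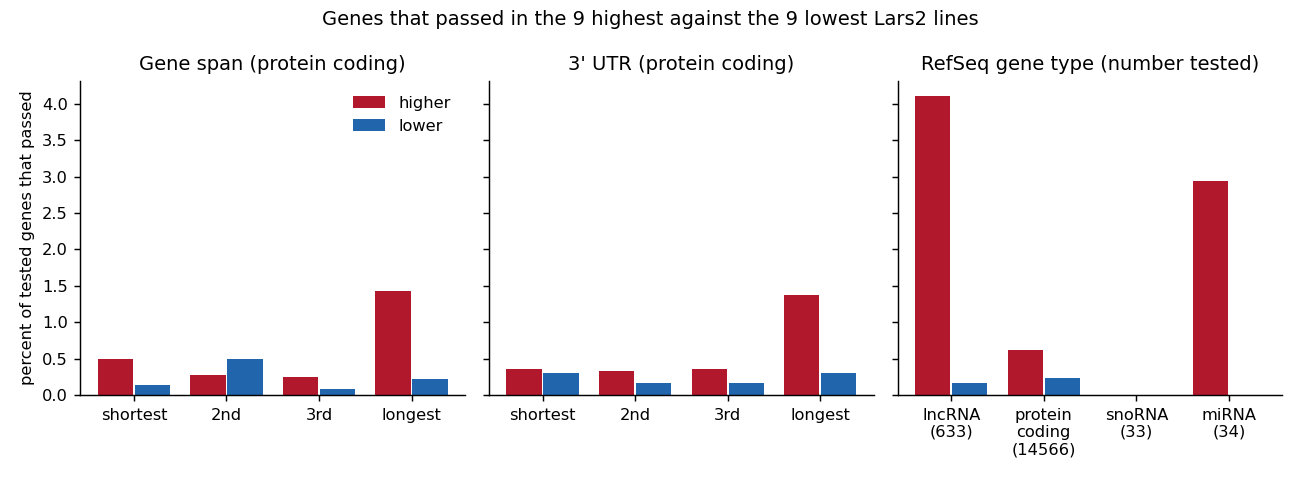
Bars give the percent of tested genes that passed as higher (red) or lower (blue) in the 9 highest Lars2 lines, in 4 groups of equal size by gene span and by 3' UTR length for protein-coding genes, and by gene type. The longest groups reach 1.43% and 1.38% higher, and long noncoding RNAs 4.11%. The part of abundance in these values was not tested. The single microRNA entry that passed sets the microRNA bar.

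Further genes among the 122 were named after their values were seen and stand for no tested theme. Of all protein-coding genes tested, 0.611% were higher and 0.233% lower. Of 81 protein-coding genes with a potassium channel symbol, 4 were higher and 0 lower, with a median of 0.02 (Kcnh7 at 1.07 ± 0.15 log2 units, Kcnq3 at 0.78 ± 0.13, Kcnma1 at 0.64 ± 0.10 and Kcnb2 at 0.47 ± 0.10, SE). Of 7 Cntnap genes of the neurexin family tested, 3 were higher and 0 lower, the 3 Cntnap5 genes (Cntnap5c at 1.22 ± 0.14, Cntnap5b at 0.79 ± 0.11 and Cntnap5a at 0.58 ± 0.11). The neuregulin receptor gene Erbb4 was at 0.91 ± 0.16 and the ubiquitin ligase gene Ube3a at 0.39 ± 0.08. Kcnh7 and Cntnap5c did not overlap between the groups, and the others did. Called genes lay on all autosomes, with 6 of 877 tested genes on chromosome 9, where Lars2 lies, called higher (0.684%).

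The lower genes differed by less, and most groups overlapped. Foxb1, a transcription factor of the mammillary region, had 11.7 to 16.4 CPM in the highest lines (median 13.2) and 15.7 to 29.3 CPM in the lowest (median 18.7), at -0.54 ± 0.10 log2 units (SE, adjusted p = 0.00677 by edgeR). B230323A14Rik, which lies opposite Foxb1 and shares exon bases with it, was at -0.43 ± 0.08, so the 2 may count reads of the same RNA. Of 6 type IV collagen chains, looked up after their values were seen, 3 were lower and 0 higher, against 0.233% of all protein-coding genes lower. Col4a3 was at -0.66 ± 0.14, Col4a2 at -0.41 ± 0.07 and Col4a1 at -0.24 ± 0.05, and the other 3 lay between -0.47 and 0.0010 and did not pass. Col4a2 had 116 to 164 CPM in the highest lines and 165 to 222 CPM in the lowest, without overlap. Ebf3, a transcription factor of the early B cell factor family, was at -0.40 ± 0.07, also without overlap, and Gpr50, an orphan relative of the melatonin receptors, at -0.40 ± 0.08. Pmfbp1, Spag5, Prss30, Syna, Cybrd1 and Vill completed the 12 with the greatest falls, between -0.58 and -0.42. Of the 18 fits that each left out 1 line, 14 lost the call for Syna and for Vill, 8 for Pmfbp1, 7 for Spag5 and 4 for Prss30. With 6 against 6 lines 10 of the 12 lost their call, all but Col4a2 and Syna, and with 12 against 12 lines Col4a3, Ebf3, Prss30 and Vill lost theirs, while no fall turned its sign in either.

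Protein-coding genes of tRNA charging, ribonuclease P and mitochondria held no call. These counts are to be read against the 1.02% of all genes that passed, at which lists of this size would hold few or none. Of 20 mitochondrial aminoacyl-tRNA synthetases and associated factors tested, 0 were higher and 0 lower, with log2 differences from -0.15 to 0.22 and a median of 0.02. The corresponding counts were 0 of 23 cytosolic synthetases (median -0.0047), 0 of 11 proteins of ribonuclease P and MRP (median 0.09), 0 of 76 mitochondrial ribosomal proteins (0.07), 0 of 75 oxidative phosphorylation subunits (0.12) and 0 of 79 cytosolic ribosomal proteins (0.09). Differences above 0 were found for 60 of the 76, 65 of the 75 and 59 of the 79. In the middle lines the median slopes of the same lists lay below 0, at -0.025, -0.021 and -0.0087. Smallest adjusted p-values over these 6 lists lay between 0.0621 and 0.371. Lars, the cytosolic leucyl-tRNA synthetase, had 51.0 to 59.4 CPM in the highest lines and 52.3 to 70.6 CPM in the lowest, at -0.12 ± 0.05 (SE). Of 13 tested neighbours of Lars2 on chromosome 9, 0 passed, with a median of -0.0071, and Limd1 and Sacm1l stood at 0.04 ± 0.06 and -0.09 ± 0.06. In the transcript of 3894 bases, the part from base 3278 to 3349 of the Lars2 3' untranslated region matches Gm15564, a noncoding entry, over 72 bases with 98.6% identity. Gm15564 is not an entry of the count table, so how its reads were assigned is not known, and how much of the Lars2 count comes from other RNA with such sequence was not tested.

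The 18 lines in neither group gave a check in libraries that the comparison did not use. Over these lines, with Lars2 between 1301 and 4490 CPM, the counts of each gene were regressed on log2 Lars2. Of 15934 genes tested 24 rose (0.151%) and 1 fell (0.00628%) at an adjusted p under 0.05 with edgeR, and 1296 (8.13%) had an unadjusted p under 0.05. Of the 122 genes higher in the highest lines, 121 were tested here and 117 had a slope above 0 (96.7%), as did 50.8% of all genes. An unadjusted p under 0.05 with that sign was found for 68 of them and an adjusted one for 15. Of the 35 lower genes 27 had a slope below 0 (77.1%), 9 with an unadjusted p under 0.05 and 0 with an adjusted one. Among the 12 with the greatest falls, slopes lay above 0 for Col4a3 (0.03 ± 0.14 SE), Ebf3 (0.04 ± 0.06), Cybrd1 (0.03 ± 0.07) and Prss30 (0.01 ± 0.20). The slopes of all the others of the 12 lay below 0. The 15 shared calls were 60% of the calls in the middle lines and 9.55% of those between the groups.

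Among the 15 were Malat1, with a slope of 0.80 log2 units per log2 unit of Lars2 (adjusted p = 0.0121 by edgeR), Grin2b at 0.78 (adjusted p = 0.00759), Kcnq1ot1 at 0.69, 9530091C08Rik at 1.01, 4930480K15Rik at 1.16, Tbrg3 at 1.01 and 5031410I06Rik at 0.92. Zbtb20 had a slope of 0.80 and an adjusted p = 0.00413, and in the groups it had 2.54 to 6.11 CPM in the highest lines and 1.15 to 2.50 CPM in the lowest. The imprinted gene Mest was shared too, at 0.25, and its groups did not overlap, with 24.5 to 32.9 CPM in the highest and 19.8 to 23.7 CPM in the lowest lines. Lrtm1, a membrane protein gene, was shared at 1.24. Rpph1 had a slope of 1.09 ± 0.35 (SE) but, with 5 to 90 reads per line, an adjusted p = 0.381 (unadjusted p = 0.00585). Mir1188 had a slope of 0.65 ± 0.23 (SE, unadjusted p = 0.0113). Ankrd63 and Egr3 had slopes of 0.11 and -0.06, with unadjusted p-values of 0.752 and 0.789. The only gene that fell, Ttll10, was not called between the groups (log2 0.03 ± 0.29 SE).

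**Figure D5:**
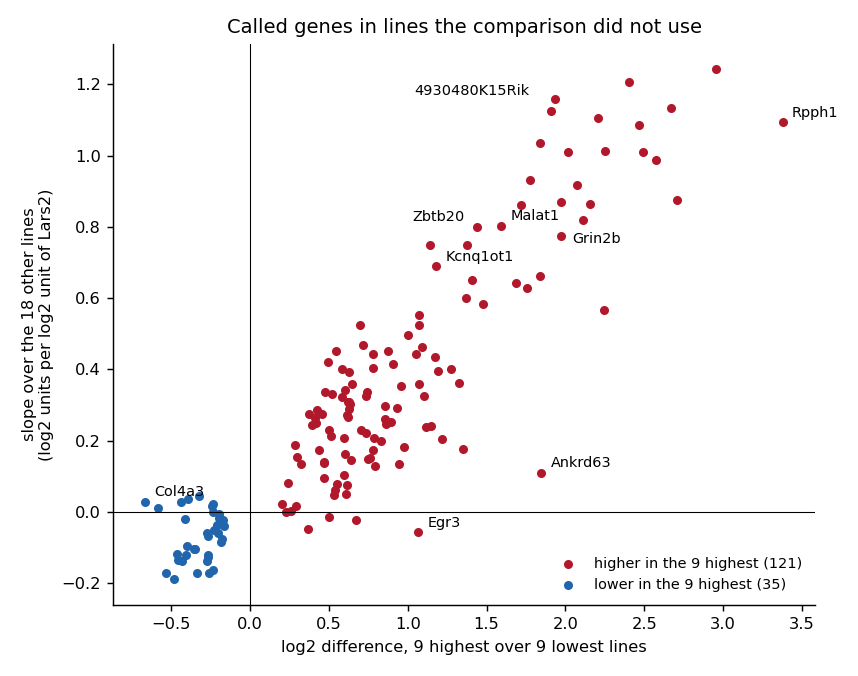
Each point is a gene called between the 9 highest and the 9 lowest Lars2 lines, with its log2 difference there and its slope over the 18 other lines, in log2 units per log2 unit of Lars2. Of the 121 genes in red 117 lie above 0. Ankrd63 and Egr3 differ by more than 1 log2 unit between the groups, with slopes of 0.11 and -0.06.

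Over all 36 lines, 5 of the 6 genes with the pattern most like that of Lars2 were 9530091C08Rik (Spearman rho 0.931), Grin2b (0.927), Tbrg3 (0.923), Ppp2r2cos (0.917) and Malat1 (0.903), of 14486 genes ranked. These values describe the same libraries that set the groups and share their depth, so they carry no p-value. The parental and F1 libraries stood within the range of the lines. Lars2 had 2204 CPM in B6D2F1, 2201 in D2B6F1, 2886 in DBA/2J and 1196 in C57BL/6J, and Malat1 had 3010, 2294, 2343 and 1159 CPM in the same order. Grin2b had 14.4, 12.9, 13.1 and 8.15 CPM, Kcnq1ot1 66.4, 69.6, 59.7 and 36.4 CPM, and Rpph1 1.27, 1.71, 1.21 and 0.941 CPM. C57BL/6J was the lowest of the 4 for each of these 5 genes, with 1 library a strain and no test.

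Egr3, an immediate early gene also listed for cortex, was the only called member of either list, with 2.31 to 12.9 CPM in the highest lines and 1.73 to 3.38 CPM in the lowest. Of 16 immediate early genes it alone passed (1.07 ± 0.24 SE, adjusted p = 0.0297 by edgeR), where 0.79% of all genes were higher. Its call was lost in 6 of the 18 fits that left out 1 line, and the list's median was 0.21. Cortical and hippocampal genes had a median of 0.42 over 9 tested, with summed levels of 98.1 to 266 CPM in the highest and 74.1 to 194 CPM in the lowest lines. Choroid plexus genes, 13 tested, had a median of -0.33 with none called, where 1.02% of all genes were. Ttr, the defining transcript of that tissue, stood at 808 CPM in BXD32 and 51.0 CPM in BXD101, both lowest lines. In the other 7 lowest lines it had at most 1.96 CPM, and in the highest lines 0.904 to 5.76 CPM. With the mean log2 level of the listed choroid plexus genes as a covariate 155 genes passed. Without BXD90 and BXD32, 122 genes were higher and 18 lower.

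Other cell type lists held no called gene, where 1.02% of all genes passed. Medians were 0.06 for 12 neuronal, -0.09 for 12 astrocyte, 0.04 for 14 myelin, 0.16 for 12 microglial, 0.06 for 14 vascular, 0.15 for 14 meningeal, 0.18 for 11 thalamic and 0.07 for 4 pituitary genes. Of 7 blood entries 6 were at 0 reads in all 18 lines. Heat shock and endoplasmic reticulum chaperones had a median of -0.10, with 16 of 20 below 0 and none called.

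More genes were detected in the highest libraries. At an equal depth of 17341834 counts, 18153 to 18363 genes were detected in the highest lines and 17955 to 18148 in the lowest, without overlap, a difference of 191 genes between means of 18250.3 in the highest and 18059.7 in the lowest lines (exact permutation test, two-sided, p = 4.1e-05, the smallest that 48620 arrangements can give, adjusted p = 1.23e-04 over 3 measures). The share of counts on genes under 1 CPM was 0.124 ± 0.00555% in the highest and 0.115 ± 0.00880% in the lowest lines (SD, n = 9 each; exact p = 0.0293, adjusted p = 0.0440). The 10 most abundant genes other than Lars2, which was left out because it set the groups, took 3.31 ± 0.181% of counts in the highest and 3.48 ± 0.205% in the lowest lines (exact p = 0.0743).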

How the data were processed

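All results start from the deposited table of raw counts, whole reads for 23955 symbols (2649 without a read). TruSeq Stranded mRNA libraries were sequenced as 100-base single-end reads, per the labels. The submitters' processing notes name TopHat2 2.0.8, HTSeq 0.5.4p3 and DESeq and the mouse assembly mm9. The annotation and strand setting are not given in the sources used here. A deposited normalized table holds a signal for 15251 genes, counts divided by a size factor per library. Its values came out as whole reads in 100% of cases within a tolerance of 0.01. Over the 15249 genes shared with the raw counts, 36.5% of these whole reads equalled the raw count, and the cause of the difference was not tested. The recovered values served as an alternative only.

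CPM are counts divided by the column total, times 1e+06. Groups were compared in R 4.3.3 by edgeR 4.0.16 (robust quasi-likelihood fit, TMM, filterByExpr, Benjamini-Hochberg adjusted p under 0.05), with Lars2 left out of the test. The same model gave slopes over the middle lines. DESeq2 1.42.0 was the other tool, and the models were tested on simulated data. Library measures used exact permutation tests over lines. Differences are log2 of highest over lowest lines. The precision of scarce genes is limited by their reads, and 3 counts, the limit that a count of 0 allows, corresponded to 0.0743 to 0.245 CPM. Lists are described by counts and medians.

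Named were Lars2 and Rpph1, the 12 called genes of at least 1 CPM with the greatest change in each direction, called members and the 3 most abundant of the noncoding lists, called members of other lists, and the 6 genes most like Lars2. Some results that the rule names are not reported here. Members and lists were chosen with earlier results of these data known. Gene types, spans and sequences come from RefSeq GRCm38.p6 and GENCODE vM21, not from the mm9 annotation, so coordinates are not those of the counting.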

Additional observations from a re-analysis of the deposited data

Results flagged for a closer look

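In 8 of 92 groups of 9 lines, a single line stood apart by more of the group's range than Dixon's test at the 95% level allows. Independent groups of normally distributed values would do so in about 1 of 20 cases. The groups here share lines, and many of their genes vary together, so the number to expect is not known. The value given is the gap to the nearest line divided by the group's range. BXD103 was the low line of the highest group for 9530091C08Rik (0.689, 1.38 CPM against a median of 3.66), Malat1 (0.626, 1644 against 3067 CPM) and Grin2b (0.582, 11.6 against 22.6 CPM), and it is also the line with the least Lars2 in that group. BXD90 was the high line of the highest group for Ankrd63 (0.515, 44.4 against 15.4 CPM) and the low line for Ebf3 (0.566, 22.8 against 29.3 CPM). BXD32 was the high line of the lowest group for Pmfbp1 (0.65, 10.8 against 6.81 CPM) and for the share of counts on genes under 1 CPM (0.554, 0.136% against 0.111%). BXD43 was the high line of the lowest group for Meg3 (0.497, 13000 against 9707 CPM).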

How the results depend on the processing

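The 122 higher and 35 lower genes became 212 and 129 with DESeq2 (341 in all) and 240 and 53 without a filter on low counts (293). They became 92 and 7 for 6 against 6 lines (99), 173 and 85 for 12 against 12 (258), and 475 and 583 for the slope over all 36 lines (1058). On the 15251 genes of the normalized table they were 81 and 21 (102). There, 36.5% of the values for genes shared with the raw counts equalled the raw count, so the reads differed as well as the genes. The added covariates gave 55 and 0 for the striatal list and 21 lower genes for the library total, and 18 were lower without BXD90 and BXD32, all chosen after seeing the data. Leaving out 1 line at a time gave 97 to 190 calls, 85 to 151 higher and 12 to 39 lower, with the fewest without BXD73 and the most without BXD32. Lower calls fell to 15 without BXD90, 17 without BXD101, 20 without BXD50 or BXD75 and 22 without BXD49. In the middle lines DESeq2 gave 79 calls (63 and 16), adding the 4 parental and F1 libraries 39 (5 lower), and no filter 2 lower. The difference in the share under 1 CPM was 0.00952 percentage points for 6 against 6 lines and no longer passed. Rpph1, Malat1, Kcnq1ot1 and Grin2b kept their calls in every fit between groups, at 2.91 to 4.05, 1.49 to 1.74, 1.10 to 1.31 and 1.80 to 2.06 log2 units.

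Sign changes were found only for values that had not passed: with 6 against 6 lines Hist1h1c at 0.10, Hist1h2bc at 0.017 and Snhg12 at 0.012; over all 36 lines Hist1h1c at 0.0071; on leaving out 1 line Hist1h2bc at -0.0969 to 0.035, above 0 without BXD101; with the library total Hist1h2bc at 0.027; with the striatal list Snord96a at -0.078 and Hist3h2a at -0.017. With the parental and F1 libraries, slopes of Prss30 (-0.021), Vill (0.017), Meg3 (-0.0027) and Egr3 (0.0042) changed sign. The cause was not tested. No paired analysis was possible because the labels match no line of the highest group to one of the lowest, with a single library per strain.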
